A study of Mus musculus with 6 samples.

Results

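Loxapine-only regions are stretches of the mouse genome that carried a peak of H3K4me3 in the loxapine list and in none of the other 5 lists of the series. They were found by merging overlapping peaks of all 6 lists, where an overlap of 1 bp was enough, and keeping each merged region that held a Loxapine peak and no peak of another list. This gave 4473 regions, which is 7.31% of the 61171 merged regions and 10.0% of the 44633 regions with a Loxapine peak. Each of them was a single Loxapine peak. Regions private to the other lists made up 12.8% of merged regions for Q7SST, 3.58% for Cyproheptadine, 2.86% for Q111SST, 1.95% for Meclizine and 1.12% for DKI. This order changed when each list was cut to the same number of its strongest peaks, where Cyproheptadine and DKI had more private regions than Loxapine. The regions were chosen by the presence and absence of peaks in these same lists, so their scores, widths and distances to other lists are given as descriptions.

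H3K4me3 is histone H3 trimethylated on lysine 4. It is deposited by SET1 and MLL complexes and sits as broad, strong peaks over the starts of active or poised genes, mostly at CpG islands, while weaker and narrower signal occurs at enhancers. AP-1 is a dimer of FOS and JUN family proteins that binds a short palindromic site and is found at many enhancers of cultured cells. Loxapine is an antipsychotic drug known to block dopamine and serotonin receptors.

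The cells were STHdh cells, a conditionally immortalised line of striatal progenitors from mouse embryos on a C57BL/6 background. Q7SST was the wild-type line STHdhQ7 and Q111SST the line STHdhQ111, homozygous for a knocked-in expanded huntingtin repeat, both given vehicle. The other 4 lists came from STHdhQ111 cells given cyproheptadine, loxapine, meclizine or Diacylglycerol kinase inhibitor II (DKI), each at 10 uM, and all cells were kept without serum for 24 h. Each line is 1 immortalised line, each condition had 1 list, and whether replicate cultures were pooled is not stated, so replicate spread could not be measured and conditions were compared without a test.

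Read depth is unknown, because the lists hold peaks and no read counts. The lists held 30758 (DKI) to 45564 (Loxapine) peaks, and Loxapine was the longest. Of 14 neural progenitor markers, 9 had a Loxapine peak within 1 kb of a start, among them Vim, Nes, Sox2 and Notch1, while 56.8% of all protein-coding genes did. Of 16 markers of other cell types, 2 did, namely the astrocyte transporter gene Slc1a2 and the microglial receptor gene P2ry12. The P2ry12 peak was itself a Loxapine-only region.

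The sequences below show what Loxapine-only regions looked like at the base level, because the AP-1 site was, of the 9 motifs searched, the one whose share stood farthest from that of the genome. Capitals mark the AP-1 site, TGACTCA or TGAGTCA on the other strand. All are the plus strand of GRCm38 (mm10), from RefSeq. The 6 regions in the first set had the highest scores among those that were at most 300 bp wide, held an AP-1 site within 50 bp of their centre and did not overlap an untranslated region.
Rap1a upstream: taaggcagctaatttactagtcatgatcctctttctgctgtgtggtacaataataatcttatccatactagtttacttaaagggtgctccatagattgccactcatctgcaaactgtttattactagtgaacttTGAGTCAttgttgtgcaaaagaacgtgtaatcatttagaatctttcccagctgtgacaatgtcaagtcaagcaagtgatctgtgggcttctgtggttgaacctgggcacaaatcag
Asic2 intron: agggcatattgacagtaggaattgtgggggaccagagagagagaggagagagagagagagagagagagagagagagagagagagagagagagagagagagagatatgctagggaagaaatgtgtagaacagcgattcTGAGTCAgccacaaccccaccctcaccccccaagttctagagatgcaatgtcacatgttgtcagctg
Emp1 downstream: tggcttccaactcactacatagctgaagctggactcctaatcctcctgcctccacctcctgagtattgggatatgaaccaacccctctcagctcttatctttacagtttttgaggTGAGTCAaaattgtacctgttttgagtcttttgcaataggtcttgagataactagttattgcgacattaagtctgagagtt
Gas2 intron: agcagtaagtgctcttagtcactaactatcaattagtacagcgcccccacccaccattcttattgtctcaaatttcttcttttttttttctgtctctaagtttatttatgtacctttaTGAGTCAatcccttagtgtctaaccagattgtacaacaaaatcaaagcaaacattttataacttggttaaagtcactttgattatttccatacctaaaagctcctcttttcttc
Crhbp downstream: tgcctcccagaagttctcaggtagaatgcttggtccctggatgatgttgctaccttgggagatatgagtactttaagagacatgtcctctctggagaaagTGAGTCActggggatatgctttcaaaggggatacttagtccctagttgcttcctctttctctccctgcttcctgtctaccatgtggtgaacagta
Myo16 intron: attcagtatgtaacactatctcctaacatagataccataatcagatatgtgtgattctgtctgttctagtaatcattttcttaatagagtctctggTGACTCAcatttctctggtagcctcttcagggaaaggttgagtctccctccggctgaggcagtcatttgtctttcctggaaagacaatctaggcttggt

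The Rap1a region (chr3:105806629-105806878, score 40) lay between genes, 5293 bp upstream of the start of Rap1a, which encodes a small GTPase. The Asic2 region (chr11:81942124-81942327, score 39) lay in an intron of this acid-sensing ion channel gene, 26130 bp from its start, and has a run of ga repeats on 1 side of the site. The Emp1 region (chr6:135387705-135387900, score 35) lay between genes, 20212 bp downstream of the start of Emp1, an epithelial membrane protein gene. The region in an intron of Gas2 (chr7:51987618-51987849, score 34) lay 17849 bp from the nearest coding start, that of Svip. The Crhbp region (chr13:95427505-95427699, score 34) lay 17132 bp downstream of the start of the gene for the corticotropin-releasing hormone binding protein. The Myo16 region (chr8:10499744-10499938, score 31) lay in an intron of this unconventional myosin gene. All 6 lay over 5 kb from any annotated start.

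The next 2 are the Loxapine-only regions with the highest scores of all, shown because neither holds the AP-1 site. The Zbtb10 region is chr3:9152151-9152415 and the Fam184a region is chr10:53650889-53651119.
Zbtb10 upstream: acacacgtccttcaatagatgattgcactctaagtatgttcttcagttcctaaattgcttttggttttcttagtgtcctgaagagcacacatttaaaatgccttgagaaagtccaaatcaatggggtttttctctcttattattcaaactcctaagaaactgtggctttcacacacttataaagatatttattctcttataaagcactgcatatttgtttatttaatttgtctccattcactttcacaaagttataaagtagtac
Fam184a intron: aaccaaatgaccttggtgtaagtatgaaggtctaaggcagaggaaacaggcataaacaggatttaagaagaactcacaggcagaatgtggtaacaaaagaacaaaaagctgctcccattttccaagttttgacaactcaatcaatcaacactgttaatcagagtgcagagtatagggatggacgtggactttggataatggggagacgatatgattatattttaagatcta

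The last was chosen as the strongest region of at most 300 bp within 1 kb of a coding start that avoids untranslated sequence. It lies at chr16:32184161-32184362, had a score of 34, and is AT-rich, with 26.7% GC in its 300-bp window, below the median of 43.0% for the 233 Loxapine-only regions within 1 kb of a start.
Bex6 start: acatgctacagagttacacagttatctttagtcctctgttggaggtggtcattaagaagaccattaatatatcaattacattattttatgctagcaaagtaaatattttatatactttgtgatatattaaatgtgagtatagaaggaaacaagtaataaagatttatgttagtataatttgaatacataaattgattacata

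An AP-1 site was found in 1157 of 4467 Loxapine-only regions on the chromosomes, or 25.9% (95% Wilson interval 24.6% to 27.2%). Each region was searched in a 300-bp window around its centre, on both strands. In windows of the same length tiled over all chromosomes the share was 4.66%, and in 32851 RefSeq promoters of 300 bp it was 5.20% (4.97% to 5.45%). The same letters read backwards, ACTCAGT, were in 7.28% of the Loxapine-only windows (6.55% to 8.07%) and in 4.68% of the tiles. These intervals cover counting error over regions only, and a match to letters is a description, not a bound site.

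The AP-1 share was not particular to Loxapine-only regions. Among regions with a Loxapine peak beyond 1 kb of a start, it was 25.9% for those in the Loxapine list alone, 28.2% (26.8% to 29.7%) for those in 2 lists, and 25.5% (24.7% to 26.4%) for those in all 6. Across the full set of regions found in all 6 lists, starts included, it was 13.6% (13.1% to 14.0%). In regions private to other lists the share was 22.6% (20.3% to 25.1%) for Meclizine-only, 18.2% (16.5% to 20.1%) for Q111SST-only and 16.7% (15.9% to 17.5%) for Q7SST-only. The share was 12.9% (10.6% to 15.6%) for DKI-only and 8.85% (7.72% to 10.1%) for Cyproheptadine-only regions. With 1 list per condition, these differences between lists were not tested.

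**Figure D1:**
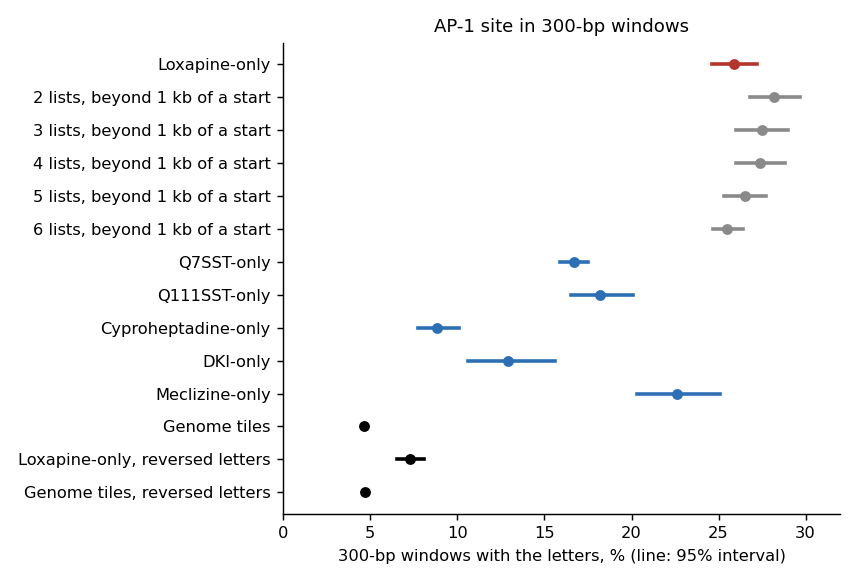
Share of 300-bp windows (x axis, %) that hold TGACTCA on either strand, with 95% Wilson intervals as lines, for Loxapine-only regions, for regions with a Loxapine peak in 2 to 6 lists beyond 1 kb of a start, for regions private to each other list and for genome tiles. The last 2 points show the letters read backwards, and the Loxapine-only share of 25.9% lies among those of regions in 2 to 6 lists.

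The lists differ in length, although the lowest score was 10 in each. With every list cut to its 30758 strongest peaks, 1312 regions were private to Loxapine, against 6241 to Q7SST, 1801 to Cyproheptadine, 1432 to DKI, 1126 to Q111SST and 1091 to Meclizine. Of the 1312, 27.7% (25.4% to 30.2%) held the AP-1 site. The shares for the other 5 lists were then 16.9% (15.3% to 18.8%) for Cyproheptadine, 17.2% (16.2% to 18.1%) for Q7SST, 19.5% (17.3% to 22.0%) for Q111SST, 19.6% (17.6% to 21.7%) for DKI and 24.4% (22.0% to 27.1%) for Meclizine. The Cyproheptadine share was thus higher than the 8.85% with whole lists. The cut also raised the lowest Loxapine score from 10 to 30, so list length and score floor cannot be told apart.

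Within the Loxapine-only regions, the AP-1 share was similar at all scores. It was 25.3% (22.5% to 28.3%) for scores of 10 to 12, 26.1% (23.9% to 28.5%) for 13 to 17 and 25.9% (19.9% to 32.9%) for 40 and above. By width it was 22.0% (20.0% to 24.3%) at up to 250 bp, 33.3% (30.6% to 36.2%) over 400 and up to 600 bp and 20.3% (17.2% to 23.8%) over 600 bp. Regions with a peak of another list within 1 kb held the site in 47 of 301 (15.6%), against 26.6% (25.3% to 28.0%) of the others. By location it was 26.2% (24.4% to 28.2%) in introns of protein-coding genes, 25.5% (23.6% to 27.5%) between genes and 25.3% (20.2% to 31.3%) within 1 kb of a start.

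The base composition of the windows was compared as well, because a motif share can move with it. Between 35% and 40% GC, 26.1% (23.7% to 28.7%) of Loxapine-only windows held the site against 4.20% of tiles, and between 45% and 50% GC it was 31.5% (28.4% to 34.7%) against 5.33%. Under 35% GC the share was 17.2% (14.7% to 19.9%) against 3.66%. In each of the 5 GC classes examined the Loxapine-only share was over 4 times that of the tiles. Of the 1157 regions with a site, 505 (43.6%, 40.8% to 46.5%) had the nearest one within 50 bp of the centre, and 121 windows held 2 or more sites.

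**Figure D2:**
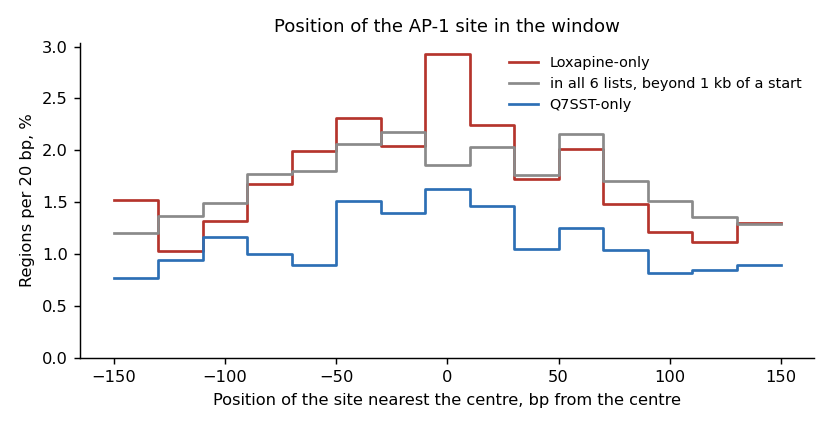
Position of the AP-1 site nearest the centre of the 300-bp window (x axis, bp from the centre) as a share of all regions of each kind per 20 bp (y axis, %), for Loxapine-only regions, regions in all 6 lists beyond 1 kb of a start, and Q7SST-only regions. In the Loxapine-only regions the site falls in the central 20 bp in 131 regions (2.93%), against 68 and 58 in the outermost bins on the left and right.

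The other 8 motifs searched stood closer to their shares in the tiles. The TATA letters TATAAA were in 29.6% (28.3% to 30.9%) of Loxapine-only windows and 27.3% of tiles, and CCAAT in 36.3% (34.9% to 37.8%) and 40.8%. The GC box GGGCGG, typical of CpG island promoters, was in 2.84% (2.39% to 3.37%), near the 2.81% of tiles and below the 26.2% (25.6% to 26.8%) of regions in all 6 lists. The E-box CACGTG was in 2.73% (2.29% to 3.25%) against 2.88% of tiles. The cAMP response element TGACGTCA, which differs from the AP-1 site by 1 inserted base, was in 15 windows, or 0.336% (0.204% to 0.553%), against 0.160% of tiles and 1.79% (1.65% to 1.94%) of promoters. The ETS site CCGGAAGT was in 13 windows, and the NRF1 site and the paired NFI half-sites in 1 each.

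Loxapine-only regions had the base composition of the bulk genome, not of CpG islands. Their median GC content was 41.0%, against 41.3% for the tiles and 50.3% for regions in all 6 lists. The median ratio of observed to expected CpG was 0.152, against 0.148 and 0.435. Only 17 windows (0.381%) were CpG-rich, meaning over 50% GC with a CpG ratio over 0.6, against 30.1% of windows of regions in all 6 lists. Repeats were scarcer than in the genome at large, since 8.42% of windows were over 50% repeat-masked against 29.2% of tiles. They were more frequent than in regions in all 6 lists, at 3.34%, or 5.38% for those beyond 1 kb of a start. Cyproheptadine-only and DKI-only regions had lower median GC contents, at 33.0% and 36.3%, and Meclizine-only regions a higher one at 45.3%.

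Loxapine-only regions were weak and narrow compared with all Loxapine peaks, as were regions private to the other lists compared with theirs. The score in the lists is a whole number of at least 10 that orders peaks by strength within a list, and its scale is not given in the sources used here. The median score was 17, with quartiles of 13 and 24, against 46 for all 45564 Loxapine peaks. The lowest score in the list, 10, was also the lowest among these regions, and the highest was 83, against 1641 for the whole list. At or above the list median stood 81 regions (1.81%), and 867 (19.4%) had scores of 10 to 12, against 4.15% of all Loxapine peaks.

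The median width was 335 bp, with quartiles of 222 and 469 bp, against 792 bp for all Loxapine peaks. The smallest width in the list was 195 bp, and 704 regions (15.7%) had exactly this width, against 3.16% of all Loxapine peaks. Regions wider than 1000 bp numbered 79 (1.77%), against 38.0% of all Loxapine peaks. Regions private to the other lists had median widths of 278 bp (Meclizine), 310 bp (DKI), 337 bp (Q111SST), 381 bp (Cyproheptadine) and 525 bp (Q7SST), and median scores of 20, 15, 16, 13 and 29 in that order. Among Loxapine-only regions, wider ones did not score higher. The median score was 19 for regions up to 250 bp wide and 16 for those over 600 bp. Of the 49 regions with a score of 50 or more, 35 were at most 300 bp wide (71.4%, 57.6% to 82.2%), against 2.58% (2.38% to 2.80%) of all 21331 Loxapine peaks with such a score. Scores ran up to 83 in the former and to 1641 in the latter. Seen the other way, these 35 were 6.35% (4.60% to 8.71%) of the 551 Loxapine peaks this strong and narrow. Of all Loxapine peaks, 9.82% were Loxapine-only.

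The score of Loxapine peaks rose step by step with the number of lists that shared the region. The median score was 20 for regions in 2 lists, 23 in 3, 28 in 4, 42 in 5 and 87 in all 6. The median region width rose in parallel from 335 bp in the Loxapine list alone to 576 bp in 2 lists and 1644 bp in all 6, where merging peaks of several lists itself widens a region. Loxapine-only regions stood at the low end of both series and overlapped with the regions in 2 lists, whose score quartiles were 15 and 29.

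**Figure D3:**
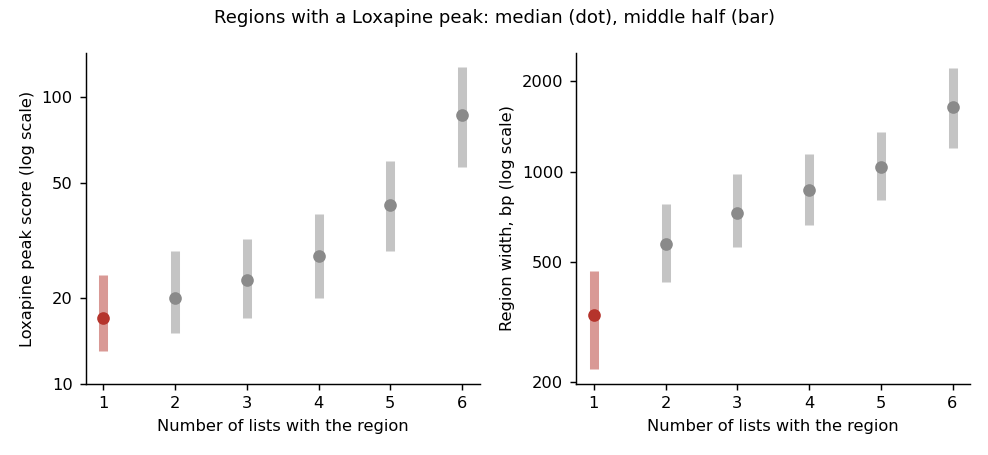
Loxapine peak score (left, log scale) and width of the merged region in bp (right, log scale) by the number of lists that hold the region, for the 44633 regions with a Loxapine peak. Dots are medians and bars run from the lower to the upper quartile, and Loxapine-only regions, in red, have the lowest medians at 17 and 335 bp.

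Most Loxapine-only regions lay far from gene starts. Within 1 kb of an annotated start of any gene lay 233 of 4473 (5.21%, 4.60% to 5.90%), against 55.9% (55.3% to 56.6%) of regions in all 6 lists. Counted by their centres, 197 (4.40%) lay within 1 kb of a start, and such positions make up 4.37% of the genome. The median distance to the nearest start was 16207 bp, and 800 regions lay over 50 kb away. The share near starts was 4.39% (3.60% to 5.33%) for Cyproheptadine-only, 6.41% (5.36% to 7.66%) for Q111SST-only and 6.58% (4.95% to 8.69%) for DKI-only regions. It was 10.6% (8.96% to 12.5%) for Meclizine-only and 13.8% (13.0% to 14.6%) for Q7SST-only regions.

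**Figure D4:**
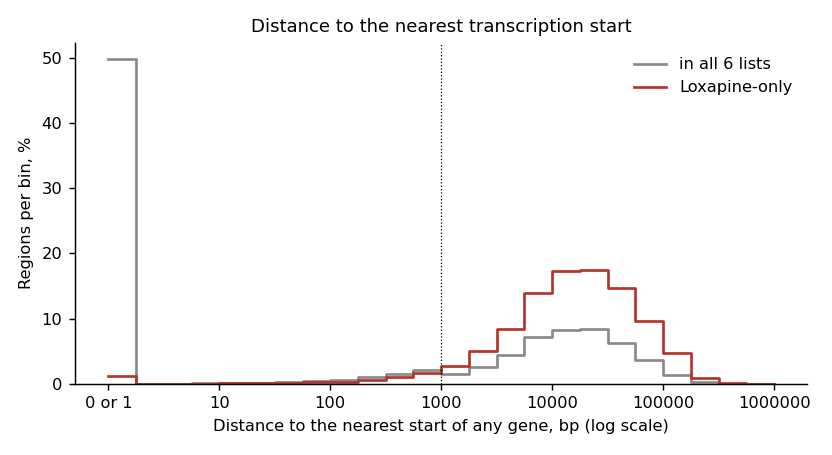
Distance from the region to the nearest start of any gene in bp (x axis, log scale, with regions over a start in the first bin) as a share of regions per bin (y axis, %). Loxapine-only regions peak between 10 and 50 kb, which holds 46.8% of them, while 53.7% of regions in all 6 lists lie within 500 bp of a start, and the dotted line marks 1 kb.

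Beyond 1 kb of a start, Loxapine-only regions were spread over gene bodies and the space between genes much like shared regions. Introns of protein-coding genes held 2042, which is 48.2% of those beyond 1 kb of a start, against 48.3% of such regions in all 6 lists. Between genes lay 1841, or 43.4% against 42.6%. Coding exons held 19 and untranslated regions 41. By centre, 2230 regions (49.9%, 48.4% to 51.3%) lay inside a protein-coding gene, and such genes cover 39.2% of the genome. Of 2116 regions in such genes and not near a start, 25.8% lay in the first of 4 equal parts counted from the start and 19.8% in the last, against 27.2% and 20.1% for regions in all 6 lists.

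By chromosome, Loxapine-only regions made up 6.82% (Y, 3 of 44) to 11.4% (X, 146 of 1277) of the Loxapine peaks. Their density ran from 0.854 per Mb on chromosome X to 2.44 per Mb on chromosome 15, leaving out chromosome Y. On contigs outside the chromosomes lay 6 regions.

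The nearest peaks of other lists were mostly several kb away. The median distance to the nearest peak of any other list was 8970 bp, and 303 regions (6.78% of the 4470 with such a peak on the same chromosome or contig) lay within 1 kb of one. No peak of another list lay within 50 kb of 392 regions. By list, the median distance was 12722 bp to Q111SST, 14063 bp to Meclizine, 15456 bp to Q7SST, 16475 bp to Cyproheptadine and 18701 bp to DKI. This order followed the number of peaks in the lists, from 40406 in Q111SST to 30758 in DKI. The median distance to the nearest region found in all 6 lists was 27561 bp, with quartiles of 10956 and 73036 bp.

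**Figure D5:**
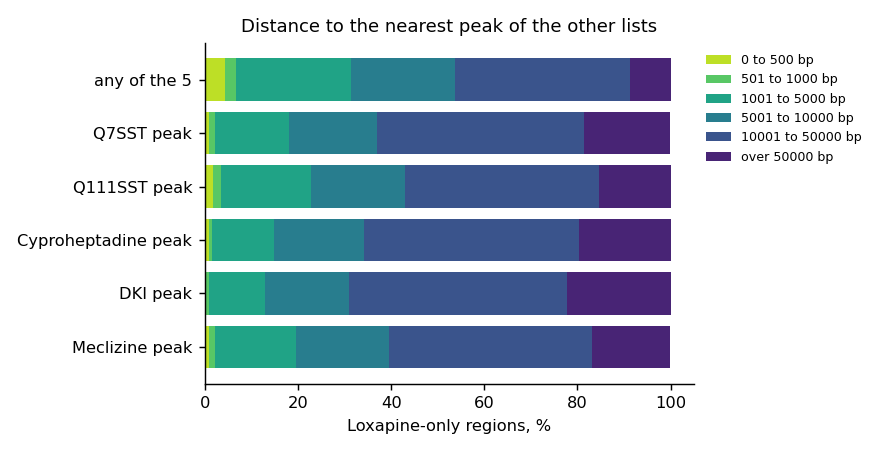
Share of Loxapine-only regions (x axis, %) by distance to the nearest peak of any of the other 5 lists and of each list in turn, in 6 distance classes shown by colour. Within 1 kb of a peak lie 6.78% for any list, 3.40% for Q111SST and 0.828% for DKI.

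At the edge of the rule, 2 regions touched a peak of another list without sharing a base. One was chr3:25110391-25110869 in an intron of Naaladl2, with a score of 14, beside a Q7SST peak with a score of 19. The other was chr4:107829552-107829746 in an intron of Lrp8, a reelin receptor gene, with a score of 10, beside a Meclizine peak with a score of 23. The third closest, chr11:96355383-96355649 near Hoxb2, had a score of 11 and lay 2 bp from a Meclizine peak with a score of 43. Just outside the rule stood chr15:8683999-8684193, a Loxapine peak with a score of 10 that shared 1 bp with a Q7SST peak. Then came chr19:38364052-38364260, with a score of 17, and chr9:5264438-5264722, with a score of 15, which shared 2 bp with a DKI and a Meclizine peak. Only 14 Loxapine peaks overlapped another list by at most 10 bp at their largest overlap.

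The strongest Loxapine-only region lay between genes, 98187 bp upstream of Zbtb10, a zinc finger gene, with a score of 83 and a width of 265 bp. All 5 other lists had a peak nearby, the closest 862 bp away in Q111SST with a score of 63. The Fam184a region followed with a score of 80, 3809 bp upstream of a start of that gene and 29 bp from a Q111SST peak with a score of 13, while the nearest peaks of the other 4 lists lay over 20 kb away. The third, chr4:106872295-106872662, had a score of 77 and lay 38808 bp upstream of Ssbp3, a partner of LIM-domain factors.

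Further strong regions included an intronic one in Poc1a, a centriole protein gene (chr9:106305492-106305714), with a score of 70. One in an intron of the zinc finger gene Zfp667 (chr7:6291057-6291308) had a score of 64 and lay 3189 bp downstream of its start. A region in untranslated sequence of the fucosyltransferase gene Fut10 (chr8:31237537-31237753) also scored 64. The region chr15:85921614-85921970 lay in an intron of Celsr1, a planar cell polarity gene, and scored 61. The 12 strongest had scores of 61 to 83 and widths of 210 to 431 bp, and none lay within 1 kb of a start. Their distances to the nearest peak of another list ran from 29 bp (Fam184a) to 151914 bp (near D7Ertd443e).

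Few protein-coding genes had a Loxapine-only region at their start. Within 1 kb lay such a region for 81 of 21924 protein-coding genes, or 0.369%, and within 5 kb for 386 genes, or 1.76%. For comparison, 12459 coding genes (56.8%) had any Loxapine peak within 1 kb of a start. Of the 81, 50 had no peak of any other list within 1 kb of a start, 24 had a Q111SST peak there and 21 had peaks in all 6 lists. Only 12 of the 4473 regions lay over a coding start itself.

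Some strong regions within 1 kb of a coding start covered the start itself. The region over the start of Trpv3, a warmth-sensitive channel of skin (chr11:73267205-73267417), scored 40, and the one over the start of the sperm acrosome gene Spaca7 (chr8:12572512-12573841) scored 35 over 1330 bp. These genes are known mainly from testis or skin.

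Klra1, a natural killer cell receptor, had a region with a score of 35 lying 269 bp upstream (chr6:130387143-130387560), and the interferon-inducible gene Ifi207 had one with a score of 33 (chr1:173741098-173741299). Both belong to families of close copies, and whether their reads are shared with relatives was not tested. P2ry12, the ADP receptor of microglia and platelets, had a region with a score of 32 lying 411 bp downstream of its start (chr3:59219597-59219848), and the nearest other peak was a Q111SST peak 14065 bp away with a score of 11. Npas3, a brain transcription factor gene, had a region with a score of 29 (chr12:53253115-53253349) that was 103 bp from a Q7SST peak with a score of 113. This one was CpG-rich, with 70.3% GC and a CpG ratio of 1.05. Nps (neuropeptide S) and Slc1a6 (a glutamate transporter of Purkinje cells) had regions with scores of 29, and P2rx2, an ATP-gated channel, had one with a score of 27.

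The widest Loxapine-only region, at 2140 bp, covered a start of Oas2 (chr5:120747968-120750107), an interferon-induced antiviral enzyme. Its score was 20, and the nearest peak of another list, a Q111SST peak with a score of 21, lay 25840 bp away. The next widest was a stretch of 1803 bp near Gm21411 on chromosome 4, with a score of 14 and a fully repeat-masked central window of 300 bp, and a 1746-bp region in an intron of Coro1c scored 11. A region of 1587 bp in the antisense gene Ifngas1, near Ifng, scored 15. The 6 widest had scores of 11 to 22, so width was not accompanied by strength.

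The most isolated region lay 762897 bp from any peak of another list, near the secretoglobin gene Scgb1b18 (chr7:33219214-33219578). Its score was 10, the lowest in the list, and 88.3% of its window was repeat-masked. The region in an intron of Il1rapl2 on chromosome X (chrX:138014536-138015026) was 706934 bp from other lists and scored 46, the highest of the 6 most isolated regions. The others, nearest to Rbfox1, Brinp1, Galntl6 and Pou3f4, scored 13 to 23.

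Loxapine-only regions were centred in the bodies of 1770 protein-coding genes, which is 8.07% of those annotated. These were long genes, with a median of 99.0 kb against 17.4 kb for all protein-coding genes. The share of genes with such a region was 0.605% under 10 kb, 12.7% from 30 to 100 kb, 31.4% from 100 to 300 kb and 47.9% over 300 kb. Per Mb of gene the number was 1.29, 2.59, 2.54 and 1.69 in those classes. Of the 1770 genes, 71.6% (69.4% to 73.6%) had an H3K4me3 peak at a start in all 6 lists, against 52.2% of all protein-coding genes. By length the order varied, with 14.9% against 34.3% under 10 kb, 62.0% against 58.7% from 10 to 30 kb, 76.8% against 67.4% from 30 to 100 kb, 76.0% against 64.4% from 100 to 300 kb and 65.7% against 45.6% over 300 kb.

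The genes with most regions in their bodies were also annotated over long stretches. Gm20388 held 14 over 4435 kb, Fgfr2 and Gm37240 held 10 each over 2961 kb and 1391 kb, Pde4d 8 over 1504 kb and Cdh18 7 over 925 kb. The annotated spans of Gm20388, Gm37240 and Fgfr2 run across several other genes, so these counts are not of regions in 1 gene alone. Pde4d encodes a phosphodiesterase that degrades cAMP and Cdh18 a cadherin. Reln, the gene of the extracellular signal reelin, held 6 over 460 kb, or 13.0 per Mb.

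Groups of regions were few. With regions joined where they lay within 50 kb of each other, 3251 stood alone, 467 pairs formed, and 90 groups held 3 or more, with 288 regions in all. The largest groups had 5 regions each. One spanned 90.5 kb around Vta1 on chromosome 10 with scores of up to 58, another 145 kb over the interleukin receptor genes Il18r1, Il1rl1 and Il1rl2 on chromosome 1 with scores of up to 20, and another 88.6 kb within Reln with scores of up to 20. Loxapine peaks of any kind in these 3 stretches numbered 8, 11 and 5.

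Genes of pathways relevant to loxapine and to these cells were then looked up. None of 15 genes for receptors that loxapine is known to bind had a Loxapine-only region in the body or within 5 kb of a start, and 2 of the 15 had any Loxapine peak at a start, the same number as in Q111SST. None of 18 immediate early genes, whose products include FOS and JUN, and none of 14 progenitor markers had one either. The median lengths of these 3 lists were 67.6 kb, 5.69 kb and 3.93 kb. Over all protein-coding genes 8.07% had a region in the body, with 0.605% under 10 kb and 12.7% from 30 to 100 kb. No difference was tested.

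Autophagy was a pathway the study followed for loxapine. Of 20 autophagy genes, 2 (10%) had a Loxapine-only region in the body, near the 8.07% of all coding genes. The list's median length was 32.9 kb, and 12.7% of coding genes of 30 to 100 kb had such a region. None of the 20 had one within 5 kb of a start, and all 20 had a peak at a start in all 6 lists. Atg7, which encodes the enzyme that activates ubiquitin-like proteins in autophagosome formation, held 3 regions over 218 kb, with scores of 17, 32 and 26. Pik3c3, the class III phosphoinositide kinase, held 1 with a score of 25.

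Of 20 genes of the ERK cascade, 5 (25%) held regions, against 8.07% of all coding genes and 12.7% of those of 30 to 100 kb, the class of the list's median length of 37.0 kb. No difference was tested. Egfr, a receptor at its head, held 3 with scores of 20, 14 and 10, and the adaptor gene Grb2 held 1 with a score of 39. The kinases Braf and Map2k1 held 1 each, with scores of 21 and 22, and the inhibitor gene Spred1 held 1 with a score of 22. Egfr and Braf are 166 and 122 kb long, in the class of 100 to 300 kb, where 31.4% of coding genes held a region. Grb2, Map2k1 and Spred1 are 64.6, 67.9 and 60.9 kb long. Of 19 sterol genes, 2 (10.5%) held regions, against 8.07% of all coding genes and 2.96% of those of 10 to 30 kb, the class of the list's median length of 22.0 kb, with no test of the difference. They were Lss, a cyclase of cholesterol synthesis, and Abca1, which exports cholesterol. Lss is 25.6 kb long, while Abca1 is 129 kb long and so also in the class of 100 to 300 kb.

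Of 22 axon guidance genes, with a median length of 344 kb, 9 (40.9%) held regions, against 47.9% of all coding genes over 300 kb. Sema5a held 4 with scores of 10 to 24, while Sema3a, Unc5c and Efna5 held 2 each. Of 21 genes for voltage-gated channels, with a median length of 170 kb, 6 (28.6%) held regions, against 31.4% of all coding genes of 100 to 300 kb. Of 20 genes for glutamate and GABA receptors, with a median length of 395 kb, 4 (20%) did, with 2 regions in Grin2a. None of these 3 shares stood above that of the length class that holds the list's median.

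Of 14 striatal neuron markers, with a median length of 72.2 kb, 5 (35.7%) held regions in the body, against 8.07% of all coding genes and 12.7% of those of 30 to 100 kb. No difference was tested. The transcription factor gene Foxp1 held 3, the strongest with a score of 44, and Foxp2 and Ebf1 held 2 each. These 3 genes are 597, 541 and 391 kb long, in the class where 47.9% of coding genes held a region. Gad1, which encodes an enzyme that makes GABA, was the 1 gene of this list with a region within 1 kb of its start (chr2:70561404-70561860), where no other list had a peak. Its score was 10, the lowest in the list, and the nearest peak of another list lay 47341 bp away. Of 16 markers of other cell types, 3 (18.8%) held a region in the body, namely P2ry12, Cx3cr1 and Slc1a2, against 12.7% of all coding genes of 30 to 100 kb.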

How the data were processed

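The deposited peak lists were made from H3K4me3 ChIP-Seq of STHdh cells after MNase digestion. Trimmomatic 0.36, Bowtie2, SAMtools 1.3, MACS2 and mm10 are named in the submitters' processing notes; thresholds and pooling are not given in the sources used here. The score is a whole number per peak as deposited by the authors. Peaks sharing at least 1 bp were merged. Starts and genes came from the GENCODE M21 basic set (21924 protein-coding genes, by symbol), and sequences from RefSeq GRCm38. Distances are gaps in bp, with 1 for touching regions. Windows of 300 bp around region centres were searched with Python 3.11.15, pandas 2.3.3 and pysam 0.24.0. Intervals are 95% Wilson intervals over regions. Merging, distances and motif search were tested on simulated data. Members, gene lists and motifs were chosen with earlier results of these data known. Named regions were the 12 strongest, the 12 strongest within 1 kb of a coding start, the 6 widest, the 6 most isolated, 3 on each side of the rule, those at listed genes, the 5 genes with most regions and the 3 densest groups. The AP-1 breakdown, the reversed letters and the 6 regions shown for their AP-1 site were added after the motif shares were seen. Alternatives were stricter or equal-sized lists, wider merging, reciprocal overlap, chromosomes 1 to 19, leaving out each other list, and other start windows and annotations. Some items these rules name are not reported here.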

Additional observations from a re-analysis of the deposited data

How the results depend on the processing

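No paired analysis was possible because no condition had a second list. The alternatives that left out the Cyproheptadine, DKI or Meclizine list, the comprehensive annotation and all those for the AP-1 share were chosen after seeing the data. With peaks of a score under the pooled median of 47 removed, 2072 regions were private to Loxapine, of which 67 were among the 4473, because weak peaks of other lists then no longer counted. These had a median score of 55, a median width of 652 bp, 7.53% within 1 kb of a start, 53.5% in protein-coding gene bodies, a median of 53673 bp to the nearest region in all lists and an AP-1 share of 31.3%. With lists of equal size there were 1312, of which 565 were among the 4473, with a median score of 36, a median width of 362 bp, 6.25% near starts, 29598 bp to the nearest region in all lists and an AP-1 share of 27.7%. With 50% reciprocal overlap, 8041 Loxapine peaks had no match, with a median score of 19, a median width of 367 bp, 8.66% near starts, 24582 bp and an AP-1 share of 24.3%. Leaving out a list moved the median distance to 22892 bp (Q7SST), 26018 bp (Q111SST), 25676 bp (Cyproheptadine) and 25615 bp (DKI), and the median width to 355 bp (Q111SST) and 346 bp (Cyproheptadine). The share near starts was 1.12% for peaks over the start, 18.8% for starts within 5 kb, 1.79% for protein-coding starts and 7.24% with the comprehensive annotation. The other 45 values stayed within 1.5 times of the count or within the interval of the value reported. Except for the higher scores in the lists cut by score or size, which follow from that construction, the cause was not tested. Without read counts or replicates, a peak missing from a list cannot be told apart from one just below its threshold.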
